A study of Mus musculus with 5 samples.

Results

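The comparison described here asks how the liver transcriptome differed when all-trans retinoic acid was given to mice that stayed on a high-fat, high-fructose (HFHFr) diet. It sets 1 array, HFHFr-FA, against 1 array, HFHFr-F, out of the 5 arrays of the series. The mice were C57BL/6J males, 25 weeks old, and each array carried liver RNA pooled from 5 of them. HFHFr-F mice ate the HFHFr diet for 20 weeks and are labelled as severely insulin resistant. HFHFr-FA mice ate it for 16 weeks and then for 4 more weeks with all-trans retinoic acid. They are labelled as free of insulin resistance, with slight fat accumulation in the liver. The other arrays are used for reference. Control mice were untreated. HFHFr-N mice returned to normal diet for the last 4 weeks and are labelled as insulin resistant, and HFHFr-NA mice returned to normal diet with all-trans retinoic acid for those 4 weeks and are labelled as recovered. No genetic modification is named in any group.

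All-trans retinoic acid, made in tissues from retinol (vitamin A), binds retinoic acid receptors, which sit with retinoid X receptors on paired half-sites near target genes and switch transcription on when the ligand arrives. The liver stores most of the body's retinol, and hepatocytes oxidise and clear retinoic acid through CYP26 enzymes whose own genes are retinoic acid targets. In liver, retinoids are also known to touch lipid synthesis, fatty acid oxidation and glucose metabolism, partly because retinoid X receptors are shared with PPAR, LXR and FXR.

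Levels are given as log2 of the processed array signal relative to the 75th percentile of that array, so that 0 is the 75th percentile, and ratios are differences of these levels, HFHFr-FA minus HFHFr-F. Where 5 levels stand in a row, they belong to HFHFr-F, HFHFr-FA, control, HFHFr-N and HFHFr-NA. Genes above background on neither array were left out, and a gene above it on just 1 of them has a bound. The bound was taken against its signal on the other array or, where higher, the lowest signal there that cleared background. It is not a strict minimum, and "at least" before a fold below refers to this rule. With 1 pooled array per group there is no replicate check, so no test or standard deviation between mice could be had and every statement below describes these pools. Higher and lower refer to ratios of at least 2-fold unless a value is given.

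Of 28632 gene names, 14925 were measured, 13794 of them on both arrays. In HFHFr-FA 405 genes were higher (2.71% of those measured) and 423 were lower (2.83%), so 48.9% of the differing genes were higher. The shares of 2.71% and 2.83% are the reference for the counts given for each list below. The share of higher genes among those that differed was 35.3% when each array was centred on its median instead. The median ratio of all measured genes was 0.03, and the middle 90% of genes measured on both arrays lay between -0.74 and 0.74. Of 140 named genes at 2-fold, 85 stayed there under all 11 alternative settings, and 5 more (Hsd3b5, Serpina4-ps1, Olfr283, Cd209f and Gipc2) under each setting that gave them a value. Those described here that came within 2-fold under at least 1 setting were Cyp26a1, Rbp2, Mlxipl, Msmo1, Cidea, Lepr, Pias3, Slc51b, Fga, Itih3, Id1, Bmp2, Asns, Arntl, Timd4, Gpnmb, E2f1, Mcm5, Dlk1, Ell3, Meltf, Tfrc, Sort1, Cela1, Cfd, Apoc2, Tspan8, Cldn7 and Cdh1, and all kept their sign wherever they had a value. Only genes of the naming rule were followed through the settings, so others described below, such as Hspa5 and Cyp7b1, were not checked in this way. At 4-fold, 34 genes were higher and 42 lower. HFHFr-FA was the highest of the 5 arrays for 255 of the 405 higher genes and stood at least 2-fold above all 4 others for 78 of them. It was the lowest for 211 of the 423 lower genes and at least 2-fold below all others for 31. No spot was saturated, and the share of spots well above background was 48.3% for HFHFr-F and 49.4% for HFHFr-FA. HFHFr-FA was alone on its slide while the other 4 arrays shared a slide, and the effects of slide and of treatment cannot be told apart.

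**Figure D1:**
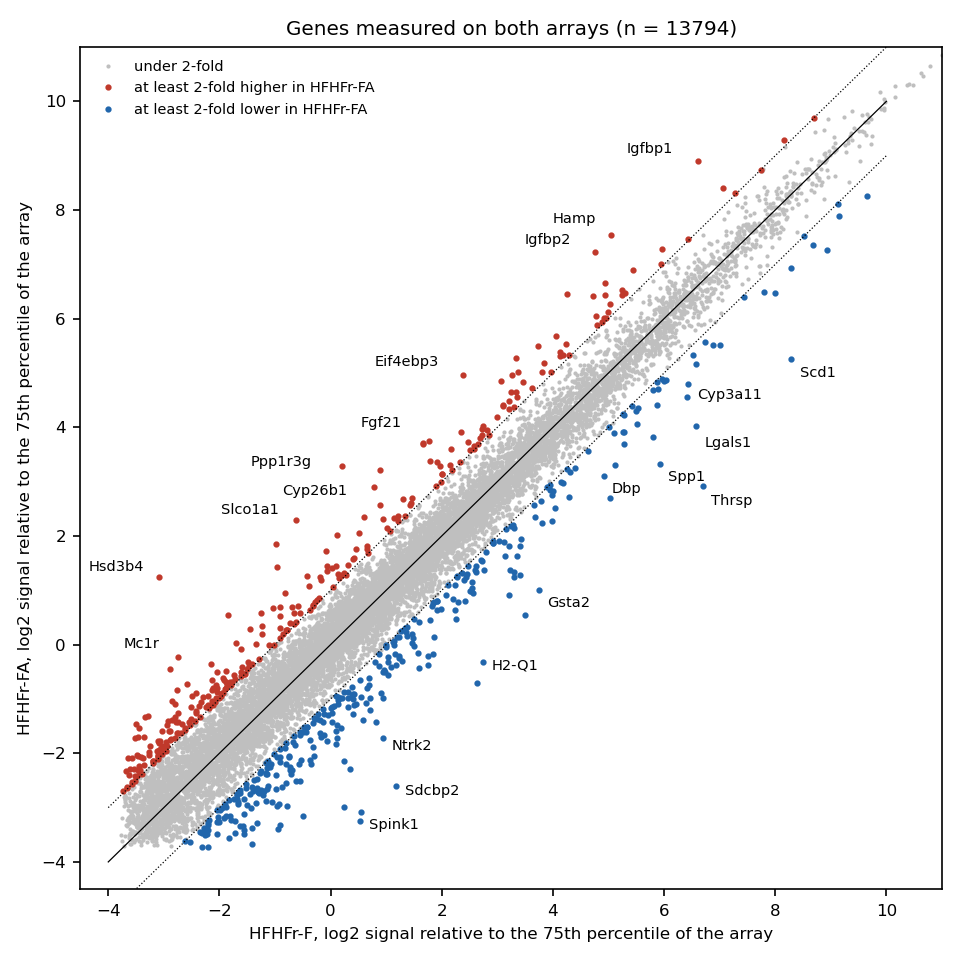
Log2 level of each of the 13794 genes measured on both arrays, HFHFr-F on the x axis and HFHFr-FA on the y axis, each relative to the 75th percentile of its array. The solid line marks equal levels and the dotted lines 2-fold; red and blue points are genes at least 2-fold higher or lower in HFHFr-FA, and genes discussed in the text are named.

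Retinoic acid response genes are described first, because they bear most directly on exposure. The promoters of Cyp26a1 and Rarb, the textbook targets of retinoic acid receptors, both carry a direct repeat of the receptor half-site, and their sequences are shown here because these genes behaved differently in these pools. The search covered the half-site AGGTCA or its variants (GGGTCA as well as AGTTCA and also GGTTCA) in direct repeat 5 bases apart on either strand, in windows from 250 bases before to 50 bases after each start site (RefSeq, GRCm38.p6). The repeat was found in 32 of 32851 windows (0.0974%) and in 5 of the 9800 measured genes that had a window. The 250 bases before the start site are printed 5′ to 3′ on the strand of the gene, with the repeat in capitals. They are chr19:37697558-37697807 on the plus strand for Cyp26a1 and chr14:16575477-16575726 on the minus strand for Rarb.
Cyp26a1: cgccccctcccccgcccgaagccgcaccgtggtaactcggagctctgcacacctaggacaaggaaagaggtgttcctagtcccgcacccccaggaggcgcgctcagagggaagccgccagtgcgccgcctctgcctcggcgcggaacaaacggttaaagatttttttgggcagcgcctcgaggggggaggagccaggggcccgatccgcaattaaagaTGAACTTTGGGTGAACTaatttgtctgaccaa
Rarb: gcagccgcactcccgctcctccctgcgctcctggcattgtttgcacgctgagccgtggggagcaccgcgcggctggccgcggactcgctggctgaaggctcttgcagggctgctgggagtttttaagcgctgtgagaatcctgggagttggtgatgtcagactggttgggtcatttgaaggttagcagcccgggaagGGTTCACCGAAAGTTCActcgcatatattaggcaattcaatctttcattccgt
The repeat lies 32 to 16 bases before the start of Cyp26a1, read on the opposite strand, and 53 to 37 bases before the start of Rarb. The other measured genes with such a repeat were Ppbp, Blvrb and Hbb-y, with ratios of -0.05, -0.53 and -1.27. With half-sites 2 bases apart the repeat was found in 88 windows (0.268%) and 11 measured genes, of which Slc25a21 differed by 2-fold, with a ratio of -1.29. A match of letters is a description of the window and not a mapped binding site.

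Cyp26b1 and Cyp26a1, which encode the enzymes that oxidise retinoic acid, were the 2 of 15 measured genes in the retinoic acid response list that were higher in HFHFr-FA, and none was lower. Cyp26b1 had log2 levels of 0.78 in HFHFr-F and 2.90 in HFHFr-FA, against 0.93 in control, 0.36 in HFHFr-N and 3.42 in HFHFr-NA. Its 2 highest arrays were those of the retinoic acid groups, and it was 4.36-fold higher in HFHFr-FA than in HFHFr-F (ratio 2.12). Cyp26a1 had levels of -1.86, -0.75, 0.62, 0.54 and 1.94 in HFHFr-F, HFHFr-FA, control, HFHFr-N and HFHFr-NA. HFHFr-F was the lowest array for Cyp26a1 and HFHFr-FA remained below control, although the ratio of HFHFr-FA over HFHFr-F was 1.11. This ratio was 0.64 when the background was corrected with normexp, a model of signal plus noise. The array probe of Cyp26b1 lies on mm9 chromosome 6, bases 84521952 to 84522011, and that of Cyp26a1 on chromosome 19, bases 37775566 to 37775625.

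Rarb, the retinoic acid receptor gene that is itself a direct target, differed little on HFHFr diet. Its probe was spotted 10 times, and its level was 0.42 ± 0.0763 (SD over 10 spots of the array) in HFHFr-F and 0.34 ± 0.0331 (SD over 10 spots) in HFHFr-FA. The spot spread describes printing and scanning, not mice. On normal diet Rarb was 0.06 in HFHFr-N and 1.25 in HFHFr-NA, a ratio of 1.19 between arrays that are not part of the main comparison. Dhrs3, the reductase that returns retinal to retinol, had a ratio of 0.51, and Rxra and Stra6 had 0.06 and -0.39. The median of the 15 genes was 0.06, close to the 0.03 of all genes, and its sign depended on the scaling. Among the genes measured on neither array were Rara, Crabp1, Crabp2 and Stra8.

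Of 27 measured genes that bind, store or oxidise retinol, 1 was higher, 1 was lower and 20 were below 0, with a median of -0.35. The share of 3.70% each way was near the 2.71% and 2.83% of all genes. Rbp2, a cellular retinol carrier, had a low signal of -3.04 in HFHFr-F and -1.59 in HFHFr-FA. Its ratio was 1.45, or 0.52 under normexp. Ces1g, a carboxylesterase, had -1.14. Aldh1a1, the main hepatic retinal dehydrogenase, had levels of 9.32 and 8.51, a ratio of -0.81. Lrat, which esterifies retinol for storage, had 0.58.

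Genes of lipid synthesis included Scd1 and Thrsp, both much lower in HFHFr-FA than in HFHFr-F. Scd1, which encodes the stearoyl-CoA desaturase that makes monounsaturated fatty acids, had levels of 8.29 in HFHFr-F and 5.26 in HFHFr-FA, against 7.74 in control, 7.96 in HFHFr-N and 5.64 in HFHFr-NA. The 3 groups without retinoic acid lay close together and both groups with it were lower by more than 2 on the log2 scale. Scd1 was 8.15-fold lower in HFHFr-FA than in HFHFr-F. Thrsp, a nuclear protein that promotes lipogenesis, had 6.69, 2.92, 1.63, 3.33 and 3.28. It was 13.7-fold lower in HFHFr-FA than in HFHFr-F, HFHFr-F standing far above the other 4 arrays, while the ratio of HFHFr-NA over HFHFr-N was -0.05. The Scd1 probe lies on mm9 chromosome 19, bases 44469387 to 44469446, and the Thrsp probe on chromosome 7, bases 104565562 to 104565621.

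Srebf1, the sterol-regulated transcription factor that drives lipogenic genes, had levels of 5.50, 4.29, 3.57, 5.30 and 4.63, a ratio of -1.21. Mogat1, an acyltransferase of triglyceride synthesis, had 2.55 in HFHFr-F and 1.03 in HFHFr-FA, a ratio of -1.51 that its 2 other probes matched with -1.44 and -1.66. Fasn, the fatty acid synthase, did not reach 2-fold (5.17 and 4.45, ratio -0.72), nor did Acaca (-0.65) and Acly (-0.54), which supply its substrates. Mlxipl, which encodes the carbohydrate-sensing factor ChREBP, ran the other way, with 3.35, 4.57, 3.80, 3.75 and 3.73 and a ratio of 1.21. Another Mlxipl probe gave 0.75, under 2-fold. Elovl3, a fatty acid elongase, had 4.05 in HFHFr-F and 5.68 in HFHFr-FA, a ratio of 1.63. Over the 29 measured genes of fatty acid and triglyceride synthesis 2 were higher, 4 were lower and the median was -0.32.

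Of 26 genes of cholesterol synthesis and uptake, all measured on both arrays, 20 were below 0 but only 1, the sterol oxidase gene Msmo1 (-1.02), reached 2-fold. That share, 3.85%, was near the 2.83% lower among all genes. Fdft1, which encodes squalene synthase, had -0.91, and the median was -0.37. Set over control, HFHFr-F gave this list a median of 0.64, a comparison that shares the HFHFr-F array. Among 22 lipid droplet genes 2 were higher and 3 lower. Cidea, a droplet fusion protein, had levels of 5.96, 4.88, 3.73, 5.82 and 4.65. G0s2, an inhibitor of the main triglyceride lipase, had 5.29 in HFHFr-F and 6.48 in HFHFr-FA, a ratio of 1.18. Cidec had -0.20, Plin2 0.71 and Plin5 0.84. Pparg, on 10 spots of each array, had 3.21 ± 0.0421 (SD over spots) in HFHFr-F and 2.40 ± 0.0361 in HFHFr-FA, a ratio of -0.81.

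Genes of fatty acid oxidation that PPARA controls were higher in part. Of 35 measured, 6 were higher, none was lower and 26 were above 0, with a median of 0.12. Fgf21, a fasting hormone made by the liver, had levels of 1.67, 3.71, 2.51, 1.50 and 2.12. HFHFr-FA was the highest array, 4.11-fold above HFHFr-F, and another Fgf21 probe gave a ratio of 2.01. Pdk4, which restrains glucose oxidation, had 2.34, 3.91, 1.31, 0.02 and 0.45, again highest in HFHFr-FA. Cyp4a31, of the omega-hydroxylase family, Acot1, a cytosolic acyl-CoA thioesterase, and Ehhadh, of peroxisomal oxidation, had ratios of 1.44, 1.33 and 1.13. Cpt1a, the gatekeeper of mitochondrial fatty acid oxidation, had 6.49 on both arrays, a ratio of 0.00. Levels of Cyp4a31, Acot1 and Ehhadh in HFHFr-FA were 1.24, 7.29 and 6.12, against 2.47, 7.14 and 7.23 in control. Mitochondrial oxidative phosphorylation showed little spread, with none of 35 genes at 2-fold. Of these genes 32 were below 0, and the median was -0.16, or between -0.25 and -0.10 under the alternatives.

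**Figure D2:**
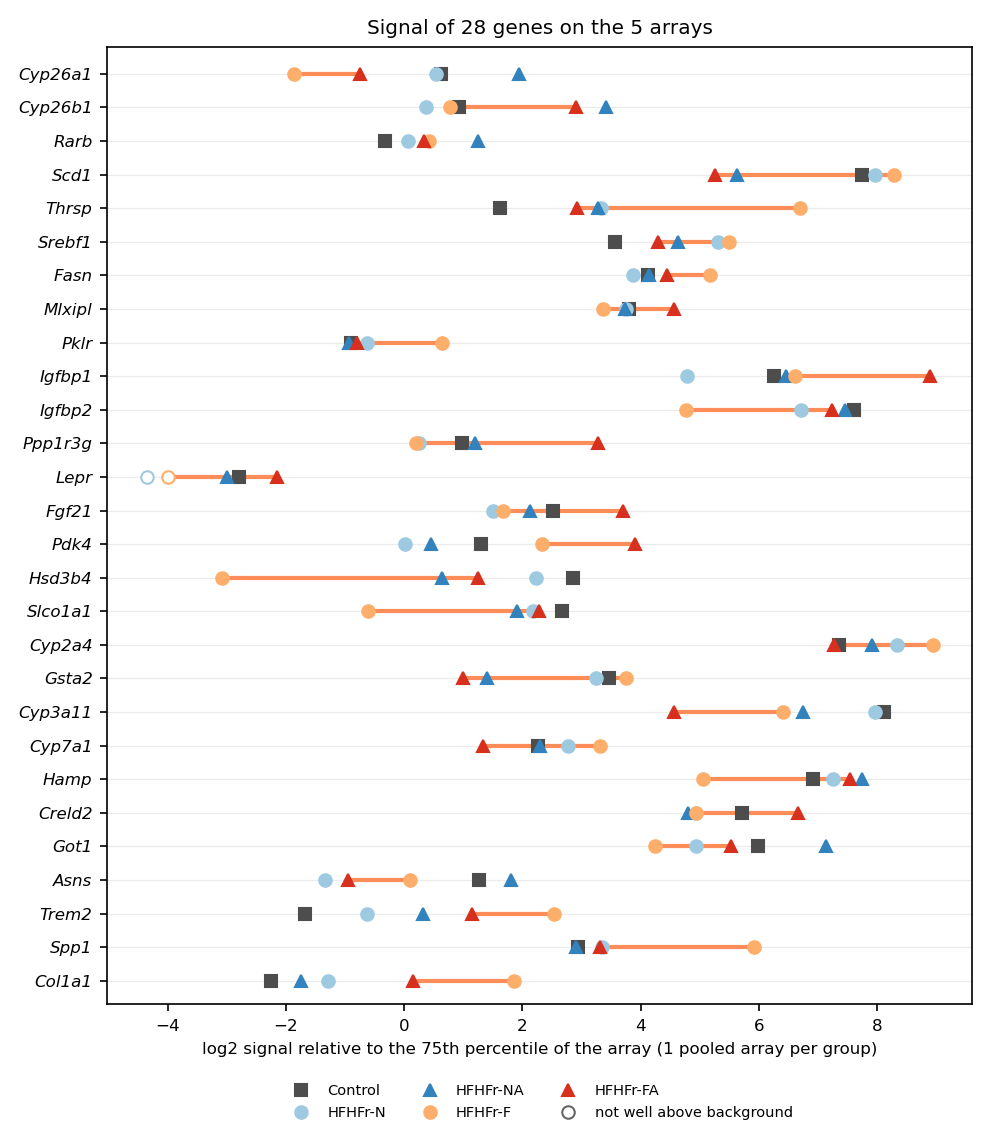
Log2 level of 28 genes on the 5 pooled arrays, relative to the 75th percentile of each array. Circles are groups without retinoic acid, triangles groups with it, squares the control, and open symbols were not well above background; the orange line joins HFHFr-F to HFHFr-FA, which is long for Hsd3b4, Thrsp, Scd1 and Ppp1r3g and short for Rarb.

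Insulin-regulated genes of glucose metabolism differed in both directions. Pklr, the liver pyruvate kinase, had 0.65, -0.79, -0.90, -0.63 and -0.93, so that only HFHFr-F stood above 0. Pik3r1, a regulatory subunit of PI3-kinase, had 1.23 in HFHFr-F and -0.24 in HFHFr-FA, a ratio of -1.47. Its 3 other probes gave between -1.17 and -0.63. Ppp1r3g, a glycogen-targeting subunit of protein phosphatase, had 0.21, 3.29, 0.98, 0.24 and 1.19 and was 8.45-fold higher in HFHFr-FA than in HFHFr-F. HFHFr-FA exceeded each other array by more than 2 on the log2 scale. G6pc, the last enzyme of glucose output, had a ratio of 0.95 and did not reach 2-fold. Of the 29 measured genes 2 were higher, 3 were lower and the median was -0.02.

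Igfbp1 and Igfbp2, secreted carriers of insulin-like growth factors, were among the highest ratios at high signal. Igfbp1 had levels of 6.61, 8.90, 6.26, 4.78 and 6.45. HFHFr-FA exceeded every other array by more than 4-fold, and was 4.90-fold above HFHFr-F. Igfbp2 had 4.77, 7.23, 7.61, 6.70 and 7.45. Here HFHFr-F was the low array and HFHFr-FA lay near control, 5.51-fold above HFHFr-F. Their probes lie on mm9 chromosome 11, bases 7102442 to 7102501, and chromosome 1, bases 72898677 to 72898736. Igf1 itself had 6.42 ± 0.0332 (SD over 10 spots) in HFHFr-F and 6.95 ± 0.0264 in HFHFr-FA, a ratio of 0.52 with 3 other probes between 0.22 and 0.52. The remaining 9 of the 11 measured genes of the list did not reach 2-fold.

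The Igfbp1 promoter is known for an insulin response sequence bound by FOXO factors, which insulin removes from the nucleus. The 250 bases before its start site, chr11:7197537-7197786 on the plus strand of GRCm38.p6 (RefSeq), are shown with that sequence in capitals because Igfbp1 stood above all other arrays in HFHFr-FA.
Igfbp1: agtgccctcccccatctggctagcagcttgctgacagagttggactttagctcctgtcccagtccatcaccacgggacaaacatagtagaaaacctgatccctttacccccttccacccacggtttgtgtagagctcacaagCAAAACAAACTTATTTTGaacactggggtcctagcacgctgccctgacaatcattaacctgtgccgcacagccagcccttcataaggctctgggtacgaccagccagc
The motif searched, the insulin response sequence with its 4 central bases left free, was taken from this gene and looked for on either strand. It was found 108 to 91 bases before the Igfbp1 start and in 1 of 32851 windows, so it describes this promoter alone.

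Lepr encodes the leptin receptor. Its signal did not clear background in HFHFr-N or HFHFr-F and did in the other 3 groups. Its levels were -3.996 in HFHFr-F and -2.14 in HFHFr-FA, against -2.80 in control, -4.36 in HFHFr-N and -2.99 in HFHFr-NA. Lepr was at least 3.08-fold higher in HFHFr-FA than in HFHFr-F. Its spot in HFHFr-FA lay beside other bright spots, and the bound's ratio of 1.62 ranged from 0.31 to 1.85 over the alternative settings. A second probe for Lepr gave a ratio of at least 1.35. Of 23 measured genes of the leptin receptor, STAT3 and SOCS list 3 were higher and none lower, with a median of 0.17. Socs2, a feedback inhibitor of cytokine and growth hormone receptors, had levels of -0.07, 1.72, 1.25, 0.08 and -0.88. A second Socs2 probe, not well above background in HFHFr-F, gave a bound of 0.55, under 2-fold. Socs3 had a ratio of 0.72, Cish 0.95 and Stat3 0.47. Pias3, an inhibitor of STAT3, had 1.31, and 0.50 under normexp.

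Liver genes that differ between the sexes in mice, through the pattern of growth hormone release, were divided by their bias. Of 29 measured male-biased genes 9 were higher and 1 was lower, with a median of 0.22. Of 26 measured female-biased genes none was higher and 12 were lower, 24 were below 0 and the median was -0.96. In HFHFr-F over control, which shares the HFHFr-F array, the medians were -0.85 for male-biased and 1.06 for female-biased genes. There 14 female-biased genes were higher and 3 lower, among the lower Cyp3a16 at -1.76. The female-biased list overlaps the cytochrome P450 list below, with Cyp2a4 and Cyp3a16 on both. Its counts therefore include relatives that share sequence and are not all separate observations. All mice were males.

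Hsd3b4, a steroid dehydrogenase on the male-biased list, had levels of -3.08 in HFHFr-F and 1.24 in HFHFr-FA. Its levels were 2.86 in control, 2.23 in HFHFr-N and 0.65 in HFHFr-NA. HFHFr-F was far below the other 4 arrays, and HFHFr-FA stayed below control. The ratio was 4.32. The probe lies on mm9 chromosome 3, bases 98303072 to 98303131. Hsd3b5, its close relative and the classic male-specific enzyme, did not clear background in HFHFr-F and had a level of 1.12 in HFHFr-FA, at least 29.5-fold higher. With normexp and quantile normalization the ratio of Hsd3b4 was 2.53 and the bound of Hsd3b5 went from 4.88 to 2.70, both on the log2 scale. Hsd3b5 had 2.67 in control, 1.99 in HFHFr-N and 0.47 in HFHFr-NA, close to the Hsd3b4 levels. A second Hsd3b4 probe cleared background on neither HFHFr-F nor HFHFr-FA. Probes of such near-identical copies may share signal, so these ratios are not independent, and signal of Hsd3b4 itself was not told apart. Slco1a1, an organic anion carrier, had -0.62, 2.29, 2.67, 2.18 and 1.91, a 7.49-fold difference that a second probe gave as a ratio of 2.79. C8b, a complement component, Socs2 and Egfr, the epidermal growth factor receptor, had ratios of 1.98, 1.79 and 1.76. The major urinary protein genes Mup1, Mup3 and Mup4 had 0.09, 0.03 and -0.08. Bcl6, a repressor that is higher in male liver, was the lower member, at -1.20.

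Among female-biased genes, Slc22a29, a member of the organic anion transporter family, had levels of 0.25, -2.98, -3.70, -1.40 and -3.46. It was not well above background in control or HFHFr-NA, and its ratio of HFHFr-FA over HFHFr-F was -3.23, or -1.60 under normexp. Cyp2a4, a steroid hydroxylase, had 8.94, 7.26, 7.35, 8.33 and 7.91. HFHFr-FA lay near control for Cyp2a4 and HFHFr-F was the highest array, and 2 other probes gave ratios of -1.67 and -1.65 beside the -1.68 of the first. Vldlr, which takes up triglyceride-rich lipoproteins, had -1.70, and another probe -1.17. Rtn4 had -1.97. Cyp2b13 went from 3.90 to 2.89 and stayed far above the control level of -0.52.

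Several drug-metabolising enzymes were lower in HFHFr-FA. Cyp3a11, the main CYP3A enzyme of mouse liver, had levels of 6.41 in HFHFr-F and 4.56 in HFHFr-FA, against 8.11 in control, 7.95 in HFHFr-N and 6.74 in HFHFr-NA. HFHFr-FA was the lowest array and each retinoic acid group lay more than 2-fold below its diet-matched group. Of 34 measured genes of cytochrome P450 families 1 to 3, 1 was higher and 10 lower, with a median of -0.52. Members of the Cyp3a family share sequence, so Cyp3a11, Cyp3a44, Cyp3a16 and Cyp3a41a (-1.85, -1.63, -1.45 and -1.35) are not separate observations, and the same holds for Cyp2a4 and Cyp2a5, Gsta1 and Gsta2, the globins and the serum amyloids.

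Glutathione transferases and other conjugating enzymes showed none of 37 genes higher and 11 lower, with 32 below 0 and a median of -0.65. Gsta2 had levels of 3.75, 1.003, 3.46, 3.25 and 1.40, and was 6.71-fold lower in HFHFr-FA than in HFHFr-F. The 3 groups without retinoic acid lay between 3.25 and 3.75 and both groups with it at or below 1.40. Gstm2, Gsta1 and Sult1c2 had ratios of -2.32, -1.98 and -1.86. Among 27 targets of the oxidant sensor NRF2, 4 were lower and none was higher. Cbr3, a carbonyl reductase, had 3.21, 0.92, 0.36, 0.67 and -0.01, with HFHFr-F standing alone. Nqo1, a quinone reductase widely used as an NRF2 readout, had a ratio of -1.52.

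**Figure D3:**
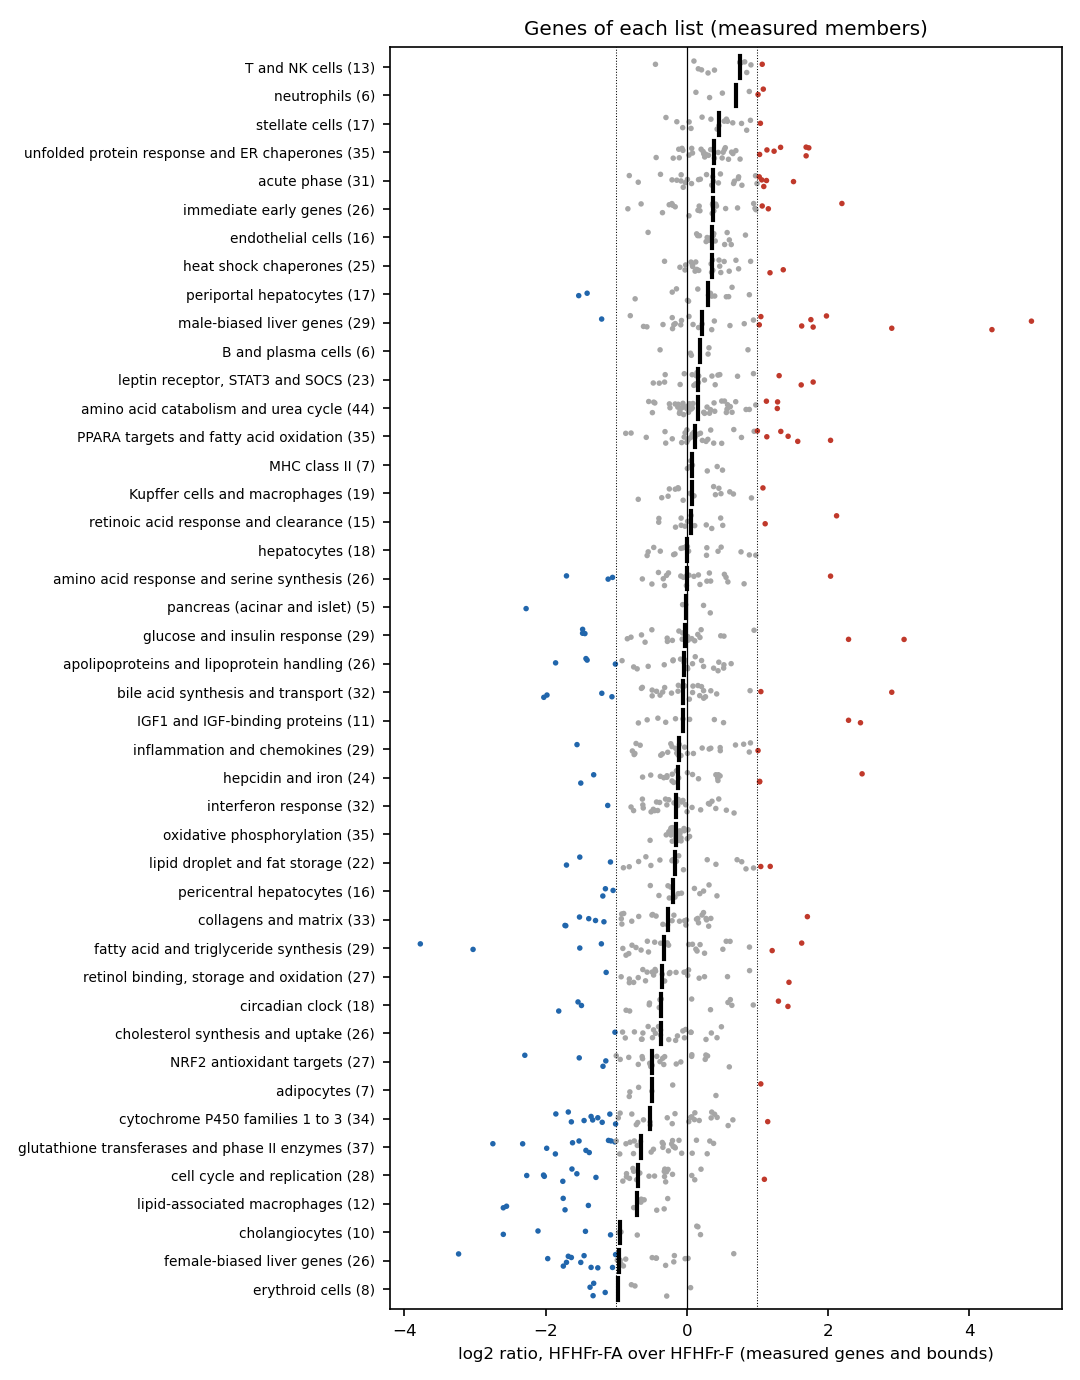
Log2 ratio of HFHFr-FA over HFHFr-F for the measured genes of 44 lists, bounds included, with the number measured in parentheses and the black bar at the median. Red and blue points are at least 2-fold higher or lower; the female-biased list lies mostly left of 0 (median -0.96) and the unfolded protein response list mostly right of it (median 0.39).

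Bile acid synthesis genes included a lower Cyp7a1, the rate-limiting enzyme of the classic pathway. Cyp7a1 had levels of 3.31, 1.33, 2.26, 2.77 and 2.30, lowest in HFHFr-FA, with a ratio of -1.98 and -1.66 on another probe. Cyp7b1 of the alternative pathway had 1.05 and Cyp8b1, which sets the share of cholic acid, had 0.90. Slc51b, a subunit of the basolateral bile acid exporter, was not well above background in HFHFr-FA and was at least 4.07-fold lower, at a low signal of -1.70 in HFHFr-F. Nr0b2 and Abcb11, targets of the bile acid receptor FXR, had ratios of 0.08 and -0.04. Of 32 measured genes 2 were higher and 4 lower, and the median was -0.05.

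Hamp, which encodes the iron hormone hepcidin, had levels of 5.05 in HFHFr-F and 7.54 in HFHFr-FA, against 6.91 in control, 7.26 in HFHFr-N and 7.75 in HFHFr-NA. HFHFr-F was the low array and the other 4 lay close together, giving a 5.60-fold difference. Id1, a target of BMP signalling, and Bmp2, a BMP ligand, had ratios of 1.03 and 1.03. For Bmp2 the ratio was 0.34 under normexp. Hamp2 ran the other way, from 3.14 to 1.64. Tfrc, the transferrin receptor, had 0.70 ± 0.0558 (SD over 10 spots) in HFHFr-F and -0.62 ± 0.0649 in HFHFr-FA. Over 24 measured genes of iron handling 3 were higher, 2 were lower and the median was -0.13.

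Genes of the unfolded protein response, which restores protein folding in the endoplasmic reticulum, included several higher members. Of 35 measured, all on both arrays, 7 were higher, none was lower and 29 were above 0, with a median of 0.39. Creld2, a stress-induced secretory protein, had levels of 4.93, 6.66, 5.71, 4.94 and 4.81. HFHFr-FA was the highest array and the ratio on normal diet, HFHFr-NA over HFHFr-N, was -0.13. Derl3, Sdf2l1, Manf and Syvn1, which serve protein folding and disposal, had ratios of 1.69, 1.69, 1.33 and 1.24. Hspa5, the chaperone BiP, had 7.35 in control, 6.43 in HFHFr-F and 7.46 in HFHFr-FA, a ratio of 1.03. Ddit3, the death-linked factor CHOP, had 0.34. Cytosolic heat shock chaperones had a median of 0.35 over 25 genes, 2 of them higher, Hspb1 at 1.37 and Hsph1 at 1.18.

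Amino acid genes showed 3 higher members and none lower among 44 of catabolism and the urea cycle. Got1, an aspartate aminotransferase, had levels of 4.24, 5.52, 5.98, 4.94 and 7.14. Asl, an enzyme of the urea cycle, had 5.24, 6.53, 6.70, 6.02 and 7.41. Both genes were higher in each retinoic acid group than in its diet-matched group. Cbs, of cysteine synthesis, had a ratio of 1.13. Asns, the asparagine synthetase and a marker of the amino acid response, had 0.10, -0.95, 1.27, -1.33 and 1.80, so that the order of treated and untreated groups was opposite on the 2 diets. The 26 genes of the amino acid response had a median of 0.00.

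Acute phase genes, made by hepatocytes in response to cytokines, included 5 higher and none lower of 31, with a median of 0.37. Saa2, a serum amyloid, had 8.16, 9.29, 5.05, 6.88 and 7.48, highest in HFHFr-FA. Fgl1, a fibrinogen-like protein, Fga and Itih3 had ratios of 1.51, 1.06 and 1.03. Immediate early genes had 3 higher of 26. Gadd45g, a stress-response gene, had 4.26, 6.46, 4.70, 3.63 and 5.67, and Gadd45b had a ratio of 1.16. Clock genes were split. Dbp, an output factor of the clock, had 4.91, 3.10, 5.54, 6.88 and 6.76, and Arntl, which encodes BMAL1, had -1.24 in HFHFr-F and 0.19 in HFHFr-FA. These 2 genes peak at opposite times of day in mouse liver, and the hour of collection is not stated in the labels, so a part of sampling time was not tested.

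Lipid-associated macrophages gather in fatty liver and take up lipid. All 12 of their measured markers were below 0, 5 of them by at least 2-fold, with a median of -0.70. Trem2, the lipid-sensing receptor that defines these cells, had levels of 2.54 in HFHFr-F and 1.15 in HFHFr-FA, against -1.68 in control, -0.62 in HFHFr-N and 0.31 in HFHFr-NA. HFHFr-FA stayed above control and HFHFr-F was the highest array; another probe gave a ratio of -1.57. Spp1, osteopontin, had 5.92, 3.32, 2.94, 3.34 and 2.90. Its level was 5.92 ± 0.0511 (SD over 10 spots) in HFHFr-F and 3.32 ± 0.0352 (SD over 9 spots) in HFHFr-FA, a 6.05-fold difference that put HFHFr-FA within the range of the other 3 arrays. Lgals1, Gpnmb and Cd63 had ratios of -2.55, -1.75 and -1.72. In pooled tissue RNA, fewer cells of a type and less RNA per cell cannot be told apart. Summed levels cover the members of a list that were well above background on all 5 arrays, here 9, without Gpnmb. The summed level was 8.18 in HFHFr-F, 6.84 in HFHFr-FA and between 6.67 and 7.12 in the other arrays. Most of the difference between HFHFr-F and HFHFr-FA in this sum came from Lgals1 (6.58 and 4.03) and Spp1, and little from Trem2. Spp1 is also on the cholangiocyte list, so the sum is not a measure of these macrophages alone.

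General macrophage markers had 1 higher and none lower of 19 and a median of 0.08. Timd4, a marker of resident Kupffer cells, was the higher member, with -1.72 in HFHFr-F and -0.64 in HFHFr-FA. Its ratio of 1.08 was 0.60 under normexp. MHC class II genes, none of 7 at 2-fold, had a median of 0.08. T and NK cell markers had a median of 0.75 over 13 genes, 12 of them above 0 and 1 at 2-fold, at low signals; under the alternatives this median went down to 0.25. Inflammation and chemokine genes had 1 higher and 1 lower of 29, with a median of -0.10.

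Collagen and matrix genes were lower in part. Col1a1, a main chain of fibrillar collagen, had levels of 1.87, 0.14, -2.26, -1.29 and -1.74. On 10 spots of each array it was 1.87 ± 0.0648 (SD over spots) in HFHFr-F and 0.14 ± 0.0591 in HFHFr-FA, a 3.30-fold difference that left HFHFr-FA above control. Col3a1, Lum and Timp1, 2 further matrix proteins and an inhibitor of matrix proteases, had -1.71, -1.39 and -1.17. Of 33 measured genes 1 was higher and 6 lower, with a median of -0.27. Stellate cell markers had a median of 0.46 over 17 genes, 1 of them higher, and under the alternatives this median went down to 0.17. Cell cycle genes had 1 higher and 7 lower of 28, with a median of -0.69 that went up to -0.32 under the alternatives. E2f1, Mcm5 and Mcm6, which drive or carry out DNA replication, had ratios of -2.27, -2.02 and -1.63. E2f1 and Mcm5 were at low signal, -1.41 and -0.93 in HFHFr-F, and their ratios were within 2-fold under normexp. A second E2f1 probe, not well above background in HFHFr-FA, gave a bound of -0.36, under 2-fold.

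Markers of other cells also differed. Of 10 measured cholangiocyte markers 4 were lower and none higher, with a median of -0.95 that went up to -0.50 under the alternatives. The lower members were Spp1, Tspan8, Cldn7 and Cdh1, and of these only Spp1 stayed 2-fold lower under all settings. Over the 6 markers well above background on all 5 arrays, summed levels were 6.22 in HFHFr-F, 4.61 in HFHFr-FA and 4.27 to 4.64 elsewhere. Spp1, also on the lipid-associated macrophage list, had 5.92 in HFHFr-F and 3.32 in HFHFr-FA. It made up most of the sum in HFHFr-F, and the lower sum in HFHFr-FA rested on it. Krt7 and Krt19, which define bile duct cells, had ratios of -0.93 and -0.70, and Sox9 had 0.16. Of 8 erythroid markers 4 were lower, with a median of -0.97 that went up to -0.51 under the alternatives. Hba-a1, an alpha globin, had 6.88, 5.52, 5.95, 6.00 and 5.57, and the summed level of the erythroid list was 9.37 in HFHFr-F, 8.12 in HFHFr-FA and 8.48 to 8.87 elsewhere. Hepatocyte markers, which check the tissue, were all measured on both arrays, with none of 18 at 2-fold, a median of 0.00 and summed levels of 12.83 and 12.86. Of 5 measured pancreas markers 1 was lower, the elastase gene Cela1, which was not well above background in HFHFr-FA and at least 4.84-fold lower. Over the 4 pancreas markers well above background on all 5 arrays, without Cela1, summed levels were 1.74 and 1.92, against 3.04 in control. Gallbladder and intestine markers had none of 4 at 2-fold. The part of these cells in the macrophage, matrix and cell cycle values was not tested.

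Genes outside the lists completed the extremes. Eif4ebp3, a repressor of translation initiation, had levels of 2.37, 4.97, 3.79, 2.04 and 4.31, and a second probe gave a ratio of 2.52 beside the 2.60 of the first. Mc1r, the melanocortin 1 receptor, Fam222a and Defb19 had ratios of 2.53, 2.44 and 2.39, and of 1.15, 1.20 and 1.55 with normexp and quantile normalization. Olfr166, an odorant receptor gene, had -0.98 ± 0.186 (SD over 9 spots) in HFHFr-F and 1.86 ± 0.252 (SD over 9 spots) in HFHFr-FA, with HFHFr-F far below all other arrays. Bounds were led, after Hsd3b5, by Serpina4-ps1, at least 7.36-fold higher, Olfr283, at least 6.08-fold, and Dlk1, at least 5.05-fold. On the log2 scale these 3 bounds were 2.88, 2.60 and 2.34, and 1.14, 1.05 and 0.87 with normexp and quantile normalization. Dlk1, which encodes a delta-like protein, was well above background in HFHFr-FA alone. Second probes of Dlk1, Olfr283, Olfr166 and Defb19 cleared background on neither HFHFr-F nor HFHFr-FA. The second probe of Serpina4-ps1 gave a bound of 2.26 on the log2 scale.

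At the lower end, Sdcbp2, a PDZ-domain adaptor, had levels of 1.19, -2.61, -4.70, -2.06 and -1.92 and a ratio of -3.79. Its signal did not clear background in control. Spink1, a trypsin inhibitor, had 0.54 in HFHFr-F and -3.08 in HFHFr-FA. H2-Q1, an MHC class I gene, had 2.75 and -0.31. In each of these genes HFHFr-F was the highest array. Ntrk2, a neurotrophin receptor, had 0.95, -1.71, -2.03, 0.19 and -1.53, and ratios of -2.66 and -2.74 on 2 probes. Mogat2, a monoacylglycerol acyltransferase, and Lrtm1 had -2.67 and -2.64. For Lrtm1 it was HFHFr-FA that stood apart, at -2.29 against -0.28 to 0.74 elsewhere. Cd209f, Gipc2, Ell3 and Meltf were not well above background in HFHFr-FA and were at least 8.48-, 8.41-, 6.96- and 6.28-fold lower. With normexp and quantile normalization the ratios were -2.29 for Sdcbp2, -1.86 for Spink1, -1.83 for Ntrk2, -1.15 for Mogat2 and -1.59 for Lrtm1. For Cd209f, Gipc2, Ell3 and Meltf the bounds were then -1.26, -1.11, -0.96 and -0.87. The Gipc2 spot in HFHFr-F lay beside other bright spots. A second Cd209f probe cleared background on neither HFHFr-F nor HFHFr-FA.

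The effect of retinoic acid on normal diet, HFHFr-NA over HFHFr-N, uses neither of the arrays compared above and is given beside them. In that comparison 225 of 14873 measured genes were higher (1.51%) and 198 lower (1.33%). Several genes had ratios of the same sign and at least 2-fold on both diets. The ones given here are examples. Cyp26b1 had 2.12 on HFHFr diet and 3.06 on normal diet, and Cyp26a1 had 1.11 and 1.40. In the same order, Scd1 had -3.03 and -2.32, Igfbp1 2.29 and 1.68, and Eif4ebp3 2.60 and 2.26. Got1 had 1.28 and 2.20, Asl 1.29 and 1.40, Cidea -1.08 and -1.17, and Gsta1 -1.98 and -1.33. Gadd45g had 2.20 and 2.04, Gsta2 -2.75 and -1.85, Lgals1 -2.55 and -2.01, and Cyp3a11 -1.85 and -1.21. Others were near 0 on normal diet. Thrsp had -3.77 and -0.05, Mlxipl 1.21 and -0.02, Creld2 1.73 and -0.13, Dbp -1.81 and -0.12, and Slco1a1 2.90 and -0.27. Among lists, the glutathione transferase list had medians of -0.65 and -0.49, the female-biased list -0.96 and -0.51, the unfolded protein response 0.39 and 0.00, and cholesterol synthesis -0.37 and 0.23. Differences between the 2 diets were not tested.

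**Figure D4:**
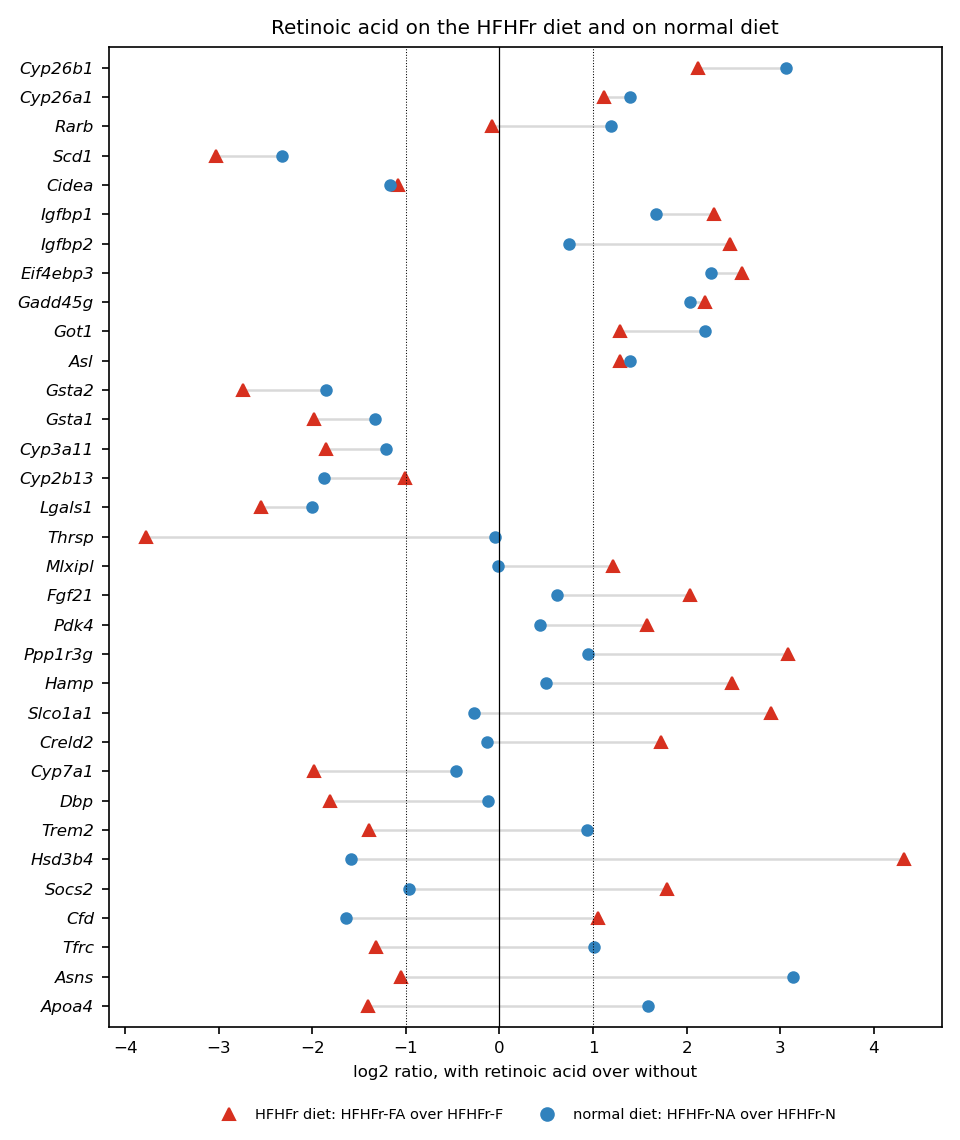
Log2 ratio with retinoic acid over without for 33 genes, on HFHFr diet (red triangles, HFHFr-FA over HFHFr-F) and on normal diet (blue circles, HFHFr-NA over HFHFr-N), 1 pooled array per group. Genes such as Scd1 and Gsta2 lie on the same side on both diets, Thrsp and Creld2 lie near 0 on normal diet, and Hsd3b4, Tfrc, Asns and Apoa4 lie on opposite sides.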

How the data were processed

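RNA from 5 livers per group was hybridised in 1 colour to 5 Agilent whole mouse genome arrays, per the labels. The processed intensity deposited for each spot had, per the file headers, been background-subtracted and detrended (Feature Extraction 10.5.1.1). The deposited value table is a ratio of that intensity to a constant per array, found by setting each column against the scanner values (204.3 for HFHFr-FA). It is neither centred nor turned, and its column medians were 0.0675 for HFHFr-F, 0.0721 for HFHFr-FA, 0.0700 for control, 0.0738 for HFHFr-N and 0.0744 for HFHFr-NA.

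Control spots and outlier spots (95 in HFHFr-F, 96 in HFHFr-FA) were left out. Log2 intensity minus the array's 75th percentile (222.6 in HFHFr-F, 212.2 in HFHFr-FA) was averaged over spots of a probe with R 4.3.3 and limma 3.58.1, and the probe with the highest mean stood for a gene. Symbols were updated through RefSeq accessions for 24844 probes, and 16330 kept the file's name. Probe positions are mm9, per the file headers; exon and UTR were not determined. The 45 lists matched 1022 of 1047 symbols. Members and lists were chosen with earlier results of these data known. The naming rule took the 12 highest and 12 lowest ratios, 4 bounds each way, up to 5 members per list and 24 fixed genes, some of which are not reported here. Genes outside it, such as Hspa5, Egfr, Bcl6, Plin2, G6pc and those of the promoter search, were named after their values were seen. The spots of 245 probes printed 10 times had a median SD of 0.0744 in HFHFr-F and 0.0659 in HFHFr-FA. Other probes of a gene differed from the chosen one by a median of 0.17. The number of arrays limits the precision.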

Additional observations from a re-analysis of the deposited data

Results flagged for a closer look

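For 7 genes the ratio with retinoic acid over without was at least 2-fold in opposite directions on the 2 diets, and the difference between the diets was not tested. Hsd3b4 and Hsd3b5, steroid dehydrogenases whose probes may share signal, had log2 ratios of 4.32 and at least 4.88 on HFHFr diet (HFHFr-FA over HFHFr-F). On normal diet (HFHFr-NA over HFHFr-N) they had -1.59 and -1.53, and they are not separate observations. Serpina4-ps1, a pseudogene of the serpin family, had at least 2.88 and -1.15. Cfd, which encodes adipsin, had 1.05 and -1.64. Tfrc, the transferrin receptor, had -1.32 and 1.01. Asns, the asparagine synthetase, had -1.05 and 3.13. Apoa4, an apolipoprotein of lipid-loaded liver and gut, had -1.41 and 1.59. HFHFr-F was the lowest of the 5 arrays for Hsd3b4 and the highest for Apoa4.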

How the results depend on the processing

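With 405 genes higher and 423 lower as the reference, normexp background correction gave 123 and 170, normexp with quantile normalization 135 and 152, no detection filter 1268 and 1195, and a 3-fold limit 90 and 110. The other settings stayed within 1.5 times: median centring gave 293 and 536, quantile normalization 366 and 458, cyclic loess 331 and 502, and the values deposited by the authors 410 and 422. Without 93 genes whose spot lay beside other deviating spots, chosen after seeing the data, 373 and 407 were counted. Of 140 named genes at 2-fold, 85 stayed so under all 11 alternatives. Another 5 stayed so under each alternative that gave them a value, and all 140 kept their sign wherever they had one; 21 of the 140, bounds among them, lacked a value under at least 1 alternative. The median of 38 of 44 lists kept its sign; the exceptions were retinoic acid response, IGF, amino acid response, hepatocytes, Kupffer cells and MHC class II. Signal over background limits the low genes, such as Cyp26a1 (ratio 0.57 to 1.11 over the settings). No paired analysis was possible because each group has 1 array, and leaving out a replicate was not possible for the same reason.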

Other observations

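Apolipoproteins and lipoprotein handling showed none of 26 genes higher and 4 lower in HFHFr-FA than in HFHFr-F, with a median of -0.03. Apoc2, the activator of lipoprotein lipase, had log2 levels of 9.12 in HFHFr-F and 8.11 in HFHFr-FA, against 8.08 in control. Pltp, which transfers phospholipids between lipoproteins, had 1.46 and 0.03, against -0.14 in control. For both genes HFHFr-FA lay near control. Sort1, a sorting receptor, had a ratio of -1.86 on the chosen probe and -0.02 on another. On 2 further probes, not well above background in HFHFr-FA, it was lower by bounds of -1.40 and -1.57.

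Zonation markers were mixed. Of 16 pericentral hepatocyte genes 3 were lower and none was higher, with a median of -0.20, and of 17 periportal genes 2 were lower and none was higher, with a median of 0.31. Glul, the pericentral glutamine synthetase, had 7.47 in HFHFr-F and 6.96 in HFHFr-FA. Cps1 and Ass1, periportal urea cycle enzymes, had ratios of 0.89 and 0.64. Interferon response genes had none of 32 higher and 1 lower, Psmb9, a subunit of the immunoproteasome, at -1.12. Endothelial markers had none of 16 at 2-fold and a median of 0.36, and Kdr, a receptor for vascular growth factor, had 1.77 ± 0.0767 (SD over 10 spots) in HFHFr-F and 2.35 ± 0.0536 (SD over 10 spots) in HFHFr-FA. The B and plasma cell list had none of 6 at 2-fold, and the adipocyte list 1 of 7 higher with a median of -0.49. The neutrophil list had 2 of 6 higher, and 3 of its 6 values were bounds. Its median of 0.70 went down to 0.31 under the alternatives. The 2 higher ratios, 1.01 and 1.09, were 0.61 and 0.50 under their weakest setting.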
